A study of Mus musculus with 8 samples.

Results

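The nuclear pore complex is the channel through which proteins and RNA cross the nuclear envelope, and it is built from nucleoporins that form a scaffold, a central channel and filaments on either side. Cargo crosses it on transport receptors of the karyopherin family: importins carry proteins in, exportins carry proteins and RNA out, and the small GTPase Ran sets the direction. Growing and dividing cells make new pores continually and take the pore apart at mitosis, when several nucleoporins and importins act on the spindle and kinetochore. The genes described here are the nucleoporins and transport receptors whose symbol begins with Nup, Kpna, Kpnb, Xpo, Ipo or Tnpo followed by a digit. The rule uses the symbol and no measured value, but it was set with earlier results of these data known. The match gave 43 of 26642 rows counted, 21 nucleoporins and 22 transport receptors, on 16 chromosomes.

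Messenger RNA was sequenced from CT26, a mouse colon carcinoma line, as 4 libraries of unedited cells (WT) and 4 of cells labelled as a knockout of Tead1 and Tead4, all grown in the same RPMI medium with serum and with no other treatment named. Both genes encode transcription factors that bring YAP and TAZ, coactivators restrained by the Hippo pathway, to DNA. Neither the site of editing, nor whether the knockout cells are 1 clone, nor whether replicates are separate cultures is stated in the labels. The p-values therefore refer to the spread among the libraries as sequenced, part or all of which may be technical. Among WT libraries, the counts of replicates 1 and 4 were close to each other, as were those of replicates 2 and 3 (chi-square per degree of freedom 34.7 and 35, against 201 to 242 for the other WT pairs), so the main count is also given with each of these pairs summed.

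Levels are in CPM, computed with effective library sizes from TMM, and are given for replicates 1 to 4 in that order or as mean ± SD with n = 4. Differences are log2 fold changes, knockout minus WT, with their standard error (SE). A gene is called lower or higher where the adjusted p of edgeR's two-sided quasi-likelihood test, over all rows tested, was under 0.05. Total counts lay between 29679405 and 32774905 per library. Tead1 stood at 319, 155, 142 and 209 CPM in WT and at 51.2, 64.8, 76.3 and 77.8 CPM in the knockout libraries (log2 fold change -1.61, SE 0.27, edgeR adjusted p = 0.00217). Tead4 stood at 52.1, 36.7, 39.4 and 63.2 CPM in WT and at 25.8, 23.3, 31.2 and 37.0 CPM in the knockout libraries, which overlap by 1 library (-0.71, SE 0.22, edgeR adjusted p = 0.0261). Both targeted mRNAs remained detected, and protein was not measured. Of 8 epithelial markers only Krt8, Krt18 and Krt20 reached 1 CPM in any library, and Epcam was at 0 in all 8. The epithelial markers summed to between 56.7 and 106 CPM in WT and between 105 and 143 CPM in the knockout libraries, higher on average in the latter (73.5 ± 22.4 and 125 ± 15.4 CPM). Fibroblast markers summed to between 1409 and 2341 CPM over all libraries. Leukocyte markers summed to between 1.55 and 3.75 CPM in WT and between 9.93 and 16.4 CPM in the knockout libraries, with Cd3e and Adgre1 at 0, and endothelial markers to at most 0.438 and 11.1 CPM, with Kdr and Emcn at 0. Only Cd68 and Lyz2 of the leukocyte markers and only Vwf of the endothelial markers reached 1 CPM in any library. Erythroid markers reached at most 0.365 CPM in any library. The part of these markers in the results was not tested.

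Nearly the whole set was lower in the knockout libraries. Of the 41 members that passed the filter on low counts 35 fell and none rose, beside 20.6% of all 13265 rows tested that were lower and 20.9% that were higher (41.6% in either direction). Among the 9319 rows with a mean of at least 10 CPM, which include all tested members but Nup210l, 26.2% were lower. None of the members rose at an unadjusted p under 0.05 either, and DESeq2 and limma-voom each gave 35 lower and 0 higher. The median log2 fold change was -1.01 over the members and 0.02 over all rows tested. All 4 knockout values lay below all 4 WT values for 32 of the 41, beside 19.6% of all rows. A fall of at least 2-fold was found for 21 members, beside 8.56% of all rows. Leaving out 1 library at a time gave 31 to 37 members lower, and summing the close WT libraries in pairs gave 25. The calls lost in the summed fit were those of Nup35, Nup37, Nup50, Nup85, Nup88, Kpna2, Kpna6, Ipo13, Xpo1 and Xpo4 (edgeR adjusted p from 0.0503 to 0.129). The members not called were Nup98, Nup210l, Kpna1, Kpna4, Tnpo2 and Ipo8. Nup62cl (3 counts, all in WT replicate 1) and Kpna7 (2 counts in each of knockout replicates 2 and 4) were too low to test.

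**Figure D1:**
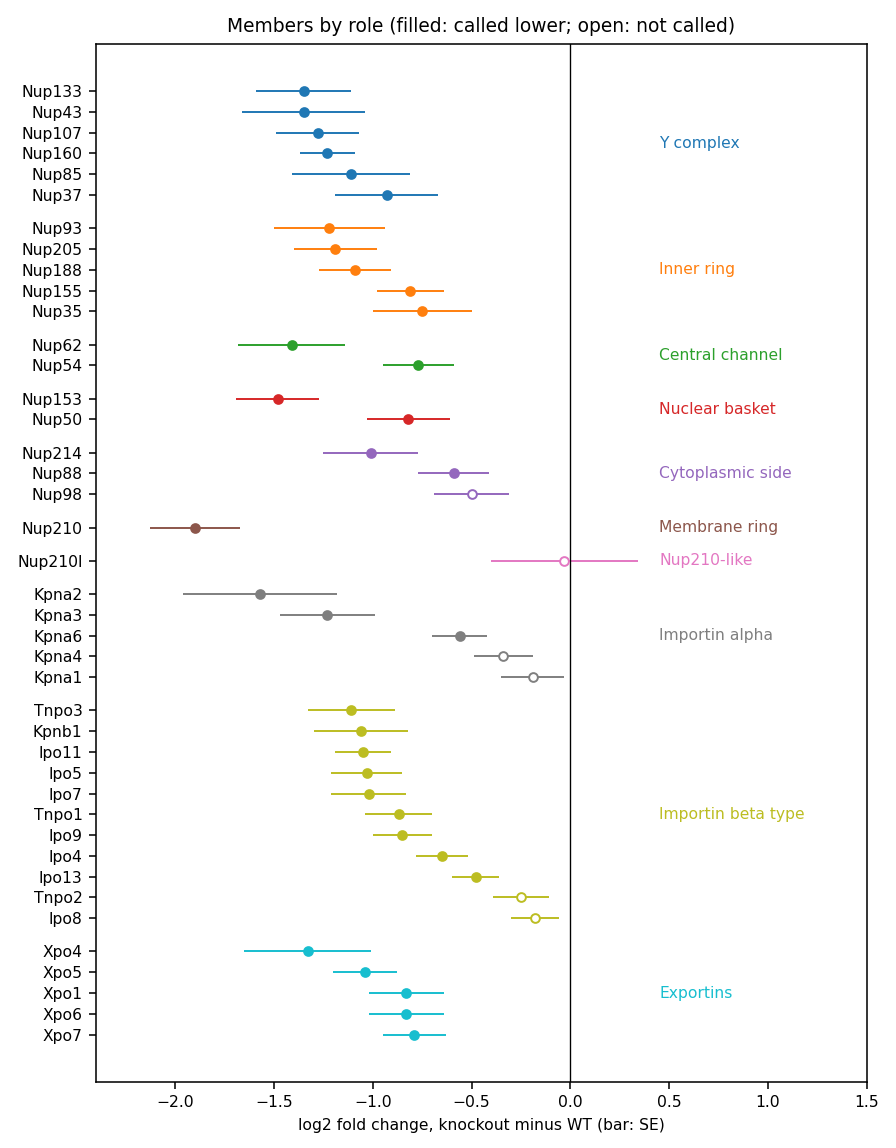
Log2 fold change, knockout minus WT, of the 41 members tested, grouped by role, with bars for the SE from 4 libraries per genotype. Filled points are the 35 members called lower and open points the 6 not called; the values run from -1.90 for Nup210 to -0.03 for Nup210l.

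The fall was also seen without TMM factors. Taken as a plain share of all counts in a library, the 43 members held 0.987%, 0.810%, 0.789% and 0.925% in WT. In the knockout libraries they held 0.573%, 0.490%, 0.487% and 0.477%. Every knockout library lay below every WT library. In CPM the nucleoporins summed to 3095 ± 423 in WT and 1474 ± 283 in the knockout libraries, 47.6% of WT, and the transport receptors to 6292 ± 1041 and 3323 ± 494, 52.8% of WT. In bulk RNA, fewer cells with a gene on and less of its RNA per cell cannot be told apart.

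The promoters of the 4 members with the smallest p are shown so that the start regions of the genes with the clearest difference can be read beside their values. They are Nup160, Nup210, Ipo11 and Nup153, and each stretch holds up to 200 bases before the RefSeq start (GRCm38.p6), trimmed where GENCODE places the start further upstream. The strand of the gene is printed 5′ to 3′, and capitals mark a match to any of the motifs listed further on.
Nup160, chr2:90677015-90677214, plus strand: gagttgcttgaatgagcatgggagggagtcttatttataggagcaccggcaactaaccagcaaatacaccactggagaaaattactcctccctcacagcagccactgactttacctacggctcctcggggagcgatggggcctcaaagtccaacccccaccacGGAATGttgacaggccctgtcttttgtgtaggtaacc
Nup210, chr6:91116830-91117026, minus strand: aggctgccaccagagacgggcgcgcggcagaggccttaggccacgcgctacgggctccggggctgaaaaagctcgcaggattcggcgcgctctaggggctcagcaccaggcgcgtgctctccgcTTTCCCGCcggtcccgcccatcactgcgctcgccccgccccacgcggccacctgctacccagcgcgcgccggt
Ipo11, chr13:106936959-106937158, minus strand: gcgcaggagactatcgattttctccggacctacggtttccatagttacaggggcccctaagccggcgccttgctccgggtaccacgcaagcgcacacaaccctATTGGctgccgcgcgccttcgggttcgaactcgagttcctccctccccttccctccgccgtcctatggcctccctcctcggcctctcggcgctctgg
Nup153, chr13:46727941-46728049, minus strand: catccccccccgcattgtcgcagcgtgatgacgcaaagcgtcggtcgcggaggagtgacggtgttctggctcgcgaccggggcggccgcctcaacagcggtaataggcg
The Nup160 stretch holds the TEAD core GGAATG from 37 to 32 bases before the start, the Nup210 stretch the E2F-type run TTTCCCGC from 76 to 69 bases before it, and the Ipo11 stretch a CCAAT box read on the opposite strand, from 97 to 93 bases before it. The Nup153 stretch holds none of the motifs searched.

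RefSeq windows, from 250 bases before to 50 after the start, were found for 32 of the 41 members tested, 39 windows in all. Each motif was searched on both strands. The TEAD core GGAATG was in 6 of the 39 (15.4%), against 12% of 11745 windows of all genes tested and 14.7% of all 32851 windows. The members with it were Nup160, Nup210, Nup93, Ipo13, Tnpo1 and Xpo6. The CCAAT box was in 53.8% of the members' windows and in 38.3% of those of genes tested. The NRF1 motif was in the windows of Nup50, Nup62, Nup107 and Xpo5, 10.3% against 2.13%. The E-box CACGTG was in 15.4% against 9.82%, the cyclic AMP response element TGACGTCA in 5.13% against 3.09% and the cell cycle element TTTGAA in 17.9% against 12.2%. Any of the E2F-type runs TTTGGCGC, TTTCGCGC and TTTCCCGC was in the windows of Nup210 and Ipo7 only, 5.13% against 3.45%. The members' windows had a median GC content of 64.7%, against 60.7% for genes tested. These matches describe letters in a window, and binding was not measured.

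The Y complex is the outer scaffold ring of the pore and also sits at kinetochores in mitosis. All 6 members grouped under it were lower, beside 20.6% of all rows tested, with log2 fold changes between -1.35 and -0.93. Outside the set are Seh1l (-0.53, SE 0.13) and Ahctf1 (-0.74, SE 0.14), both called lower. Sec13 (-0.01, SE 0.17), not called, is outside it as well. The subunit Nup96 is encoded by the transcript of Nup98, a member grouped under the cytoplasmic side. Nup98 was not called (-0.50, SE 0.19), and its genotypes overlap. Nup160 (ENSMUSG00000051329; GRCm38 chromosome 2, 90677215 to 90736328, plus strand) stood at 197, 191, 167 and 204 CPM in WT and at 91.8, 70.5, 79.9 and 81.7 CPM in the knockout libraries. The genotypes are far apart and the libraries within each close together, and Nup160 had the smallest p of the set (-1.23, SE 0.14, edgeR adjusted p = 0.000496). Nup107 (ENSMUSG00000052798; chromosome 10, 117750621 to 117792705, minus strand), the most abundant of the 6 per kilobase of exon in WT, stood at 159, 143, 151 and 159 CPM in WT and between 49.9 and 94.8 CPM in the knockout libraries, with no overlap (-1.28, SE 0.21, edgeR adjusted p = 0.00221). Nup133, the stalk subunit that joins neighbouring Y complexes, went from 121, 105, 106 and 110 CPM to 64.6, 47.2, 31.8 and 29.2 CPM (-1.35, SE 0.24, edgeR adjusted p = 0.00296). In both genes knockout replicate 1 was the highest knockout library but still below WT. Nup43 (-1.35), Nup85 (-1.11) and Nup37 (-0.93) fell as well, and only for Nup37 did the genotypes overlap, through knockout replicate 1 at 51.4 CPM. The call for Nup37 was lost without knockout replicate 2, 3 or 4 (edgeR adjusted p up to 0.0587).

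The inner ring, which anchors the pore in the fused membranes, was lower in all 5 members, beside 20.6% of all rows tested. Nup188 (chromosome 2, 30286397 to 30344266, plus strand), a large scaffold subunit, stood at 335, 236, 231 and 335 CPM in WT and at 159, 118, 124 and 133 CPM in the knockout libraries (-1.09, SE 0.18, edgeR adjusted p = 0.0022). Nup205 (chromosome 6, 35177421 to 35247596, plus strand), its paralogue in the ring, was even across WT at 333, 330, 324 and 322 CPM. It was uneven across the knockout libraries at 204, 151, 112 and 108 CPM (-1.19, SE 0.21, edgeR adjusted p = 0.00262). Nup93, the linker to which both bind, fell to 43.1% of its WT mean (139 ± 28.0 to 59.7 ± 25.0 CPM). Nup155, which contacts the membrane, fell less (-0.81, SE 0.17), and so did Nup35 (-0.75, SE 0.25). The call for Nup35, whose genotypes overlap through knockout replicate 1, was lost when any library other than WT replicate 3 or knockout replicate 1 was left out (edgeR adjusted p up to 0.0941), and under upper-quartile factors or library size only.

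The channel, basket and membrane nucleoporins included the largest falls. Nup62, the FG-repeat protein of the central channel, stood at 280, 152, 196 and 252 CPM in WT and at 119, 89.3, 62.8 and 59.1 CPM in the knockout libraries (-1.41, SE 0.27, edgeR adjusted p = 0.0037). Nup54, its partner in the channel, fell too (-0.77, SE 0.18). Nup153 (ENSMUSG00000021374; chromosome 13, 46679905 to 46727940, minus strand), the FG-repeat protein that anchors the nuclear basket, stood at 522, 291, 288 and 410 CPM in WT and at 134, 128, 136 and 142 CPM in the knockout libraries. The WT libraries are widely spread and the knockout libraries close together, and knockout replicate 1 is not the highest of them (-1.48, SE 0.21, edgeR adjusted p = 0.00111). Nup50, the basket protein that helps release importin alpha from its cargo, fell as well (-0.82, SE 0.21). Nup210 (ENSMUSG00000030091; chromosome 6, 91013068 to 91116829, minus strand), a transmembrane ring protein, had the largest fall of the set, from 18.7, 21.6, 18.6 and 18.0 CPM to 6.86, 3.32, 4.71 and 5.65 CPM, which is 3.74-fold (-1.90, SE 0.23, edgeR adjusted p = 0.000673). Its relative Nup210l, known mainly from germ cells, stayed near 2.46 ± 1.08 CPM in WT and 2.40 ± 0.723 CPM in the knockout libraries (-0.03, SE 0.37).

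On the cytoplasmic side, where mRNA leaves the pore, 2 of 3 members were lower, beside 20.6% of all rows tested. Nup214 stood at 175 ± 60.4 CPM in WT and 87.2 ± 9.61 CPM in the knockout libraries (-1.01, SE 0.24, edgeR adjusted p = 0.00866). Its partner Nup88 fell (-0.59, SE 0.18), with knockout replicate 1 at 98.7 CPM inside the WT range. The call for Nup88 was lost without WT replicate 1 or knockout replicate 2, 3 or 4 (edgeR adjusted p up to 0.0769) and under upper-quartile factors. Nup98, whose transcript also encodes the Y complex subunit Nup96, had a log2 fold change of -0.50 (SE 0.19) and was not called (edgeR adjusted p = 0.0611). It was called without WT replicate 3 (adjusted p = 0.0168).

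**Figure D2:**
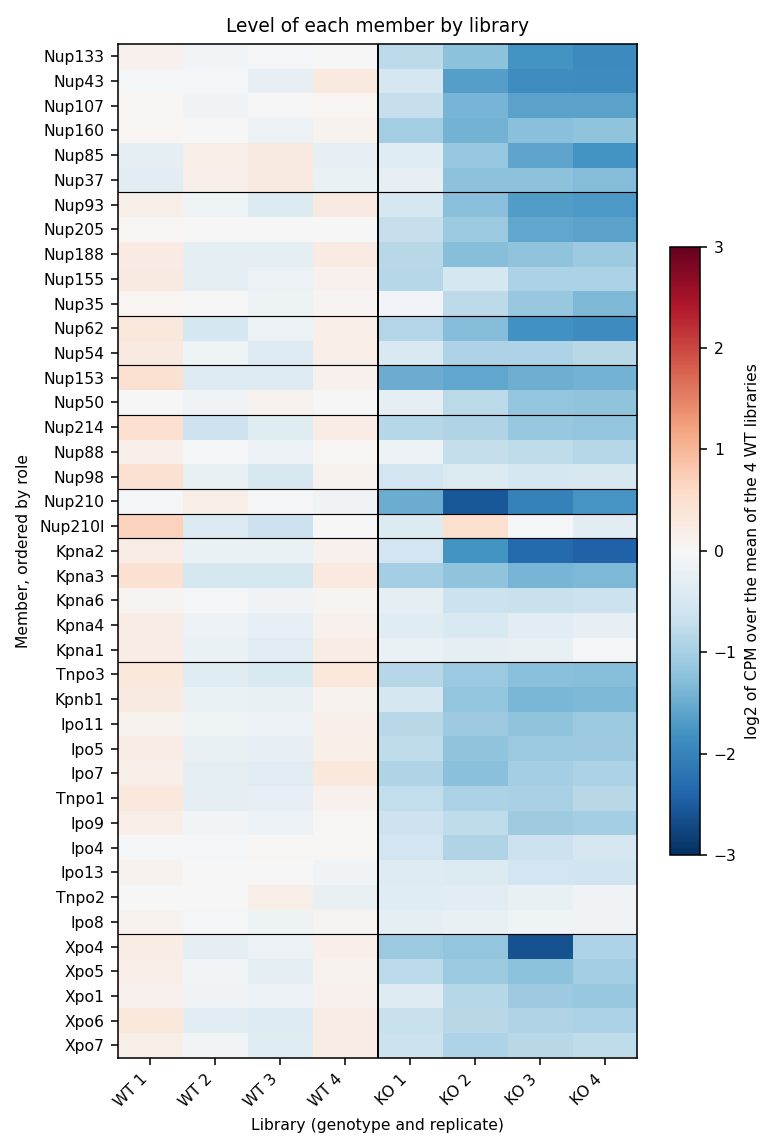
Level of the 41 members tested in each of the 8 libraries, as log2 of CPM over the mean of the 4 WT libraries, with members in rows by role and libraries in columns. Blue is below the WT mean, and knockout replicates 2 to 4 are blue for nearly every member. Knockout replicate 1 is paler for many members, most clearly for Kpna2, Nup43, Nup85, Nup93, Nup37 and Nup35.

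Importin beta type receptors bind the pore and Ran directly, and 9 of 11 were lower, beside 20.6% of all rows tested. Kpnb1 (chromosome 11, 97159714 to 97187881, minus strand), which encodes importin beta and carries proteins bound through importin alpha, was the most abundant member per kilobase of exon. It stood at 1486, 1088, 1064 and 1332 CPM in WT and at 868, 546, 480 and 489 CPM in the knockout libraries (-1.06, SE 0.24, edgeR adjusted p = 0.00698). Ipo5 (chromosome 14, 120911224 to 120947999, plus strand) and Ipo7 (chromosome 7, 110018274 to 110056609, plus strand), importers of ribosomal proteins and histones, followed in level among the importin beta type receptors. Ipo5 went from 811, 598, 590 and 785 CPM to 412, 302, 324 and 325 CPM (-1.03, SE 0.18, edgeR adjusted p = 0.00261). Ipo7 went from 680, 490, 482 and 747 CPM to 321, 251, 295 and 313 CPM (-1.02, SE 0.19, edgeR adjusted p = 0.00334). For both genes WT replicates 1 and 4 were the high WT libraries, and no knockout library reached the lowest WT library.

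Ipo11 (ENSMUSG00000042590; chromosome 13, 106794439 to 106936958, minus strand), an importer of ubiquitin-conjugating enzymes, was at 118, 99.1, 97.1 and 121 CPM in WT and at 61.1, 51.2, 47.2 and 50.3 CPM in the knockout libraries (-1.05, SE 0.14, edgeR adjusted p = 0.00105). Ipo9 (chromosome 1, 135382312 to 135430499, minus strand), an importer of histones and actin, was at 203, 167, 155 and 180 CPM in WT and at 115, 104, 84.0 and 87.2 CPM in the knockout libraries (-0.85, SE 0.15, edgeR adjusted p = 0.00299). Tnpo3, the importer of SR splicing factors, fell (-1.11, SE 0.22), as did Tnpo1, the importer of hnRNP proteins (-0.87, SE 0.17). The paralogue of Tnpo1, Tnpo2, was not called: it stood at 174 ± 18.9 CPM in WT and 146 ± 12.5 CPM in the knockout libraries (-0.25, SE 0.14). Ipo8, the paralogue of Ipo7, was not called either (-0.18, SE 0.12). Whether the paralogues of each pair differ in response was not tested. Ipo13 fell (-0.48, SE 0.12), a call lost without knockout replicate 3 and under upper-quartile factors or library size only. Ipo4 fell (-0.65, SE 0.13), but 55.3% of its exon bases lie in exons of another annotated gene on the same strand, so its value is uncertain.

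Importin alpha proteins read the classical nuclear localisation signal, and 3 of the 5 genes tested were lower, beside 20.6% of all rows tested. Kpna2 (chromosome 11, 106988629 to 106999541, minus strand), the form most tied to proliferating cells, stood at 409, 305, 308 and 381 CPM in WT and at 237, 101, 69.3 and 65.2 CPM in the knockout libraries. All knockout libraries lay below WT, and replicate 1 was 3.02 times the mean of the other knockout libraries, the highest such ratio among the members (-1.57, SE 0.39, edgeR adjusted p = 0.0109). Without knockout replicate 1 its log2 fold change was -2.18, and with the close WT libraries summed in pairs its call was lost (edgeR adjusted p = 0.0571). Kpna3 fell from 290, 148, 148 and 261 CPM to 104, 91.6, 81.1 and 83.4 CPM (-1.23, SE 0.24, edgeR adjusted p = 0.00423), and Kpna6 fell less (-0.56, SE 0.14). Kpna4 (-0.34, SE 0.15, edgeR adjusted p = 0.0912) and Kpna1 (-0.19, SE 0.16, edgeR adjusted p = 0.369) were not called.

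Within a library, the level per kilobase of exon gives each gene's share of the importin alpha total, a measure that no scaling between libraries can move. Kpna2 held 52.6%, 56.1%, 57.2% and 52.6% of the total in WT. In the knockout libraries it held 54.9%, 36.9%, 28.9% and 26.6%, so replicate 1 lay inside the WT range and the other 3 below it. The share of Kpna4 was 11.3%, 12.1%, 11.7% and 11.3% in WT and 13.5%, 20.1%, 24.8% and 25.8% in the knockout libraries, with no overlap. Kpna1 held 4.91% ± 0.238 of the total in WT and 9.93% ± 2.61 in the knockout libraries, again with no overlap. Kpna6, though called lower, held between 6.43% and 8.46% in WT and between 9.01% and 12.4% in the knockout libraries, also with no overlap. Kpna3 held between 18.3% and 24.9% in WT and between 16.2% and 22.8% in the knockout libraries. The shares of a library add up to a whole, so a smaller share of Kpna2 by itself means larger shares elsewhere. These shares are a description with no test, since they were chosen after the values were seen, and exon length was taken over all annotated transcripts.

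**Figure D3:**
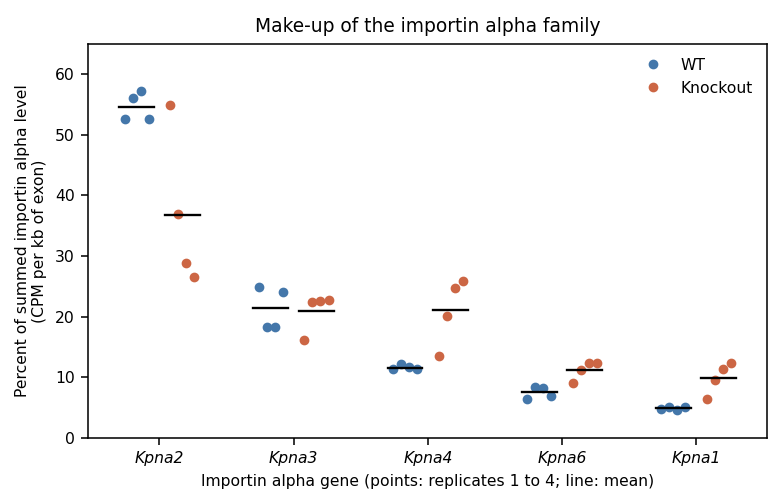
Share of each importin alpha gene in the summed CPM per kilobase of exon of the family, in percent, with points for replicates 1 to 4 from left to right and a line at the mean of each genotype. Kpna2 lies between 52.6% and 57.2% in WT and between 26.6% and 54.9% in the knockout libraries. Kpna4, Kpna1 and Kpna6 each lie above their WT range in all 4 knockout libraries.

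All 5 exportins in the set were lower, with no overlap between genotypes. Of all rows tested, 20.6% were lower, and 19.6% had all knockout values below all WT values. With the close WT libraries summed in pairs, the calls for Xpo1 (edgeR adjusted p = 0.0507) and Xpo4 (0.0503) were lost. Xpo5 (chromosome 17, 46202782 to 46243598, plus strand), the exporter of microRNA precursors, stood at 315, 259, 227 and 296 CPM in WT and at 157, 126, 117 and 133 CPM in the knockout libraries (-1.04, SE 0.16, edgeR adjusted p = 0.00152). Xpo1 (chromosome 11, 23256041 to 23298249, plus strand), which encodes CRM1, the main exporter of proteins with a leucine-rich signal, stood at 432, 367, 353 and 438 CPM in WT and at 306, 220, 187 and 181 CPM in the knockout libraries. The genotypes do not overlap (-0.83, SE 0.19, edgeR adjusted p = 0.00855). Xpo4 fell (-1.33, SE 0.32), with knockout replicate 3 at 18.2 CPM far under the other knockout libraries at 51.8, 49.8 and 59.4 CPM. Xpo6, the exporter of actin (-0.83, SE 0.19), and Xpo7 (-0.79, SE 0.16) fell as well.

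The libraries of a genotype were not alike. Knockout replicate 1 had 14345 rows with a count above 0, near the WT libraries at 14566 to 15430. Knockout replicates 2 to 4 had 17759, 17948 and 17775. TMM factors were 0.9659 for knockout replicate 1 and 1.073, 1.144 and 1.082 for replicates 2 to 4. The part of this difference in the members' values was not tested. The top knockout value was that of replicate 1 for 31 of the 35 members that fell. Its ratio to the mean of the other knockout libraries ran from 0.721 for Nup210l to 3.02 for Kpna2, with a median of 1.26. Other high ratios included those of Nup43 (2.44), Nup85 (2.18), Nup37 (1.99) and Nup35 (1.98). Nup153 (0.993) and Nup155 (0.955) fell without any such excess, and Kpna1, Kpna4, Nup98, Tnpo2 and Ipo8, which were not called, had ratios between 0.898 and 0.999. Markers of proliferating cells moved in the same direction: 14 of the 15 listed fell, beside 20.6% of all rows tested. Their summed level was 6829, 5441, 5382 and 6317 CPM in WT and 3619, 1904, 1114 and 978 CPM in the knockout libraries. Their ratio of knockout replicate 1 to the others was 2.72, against 1.40 for the summed nucleoporins and 1.32 for the summed transport receptors. The part of proliferation in the members' fall was not tested. Without knockout replicate 1, 35 members were still lower. In WT, replicates 1 and 4 were both above replicates 2 and 3 for 33 of the 41 members and both below them for Nup37 and Nup85. These are also the 2 pairs of WT libraries whose counts were closest to each other over all rows.

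**Figure D4:**
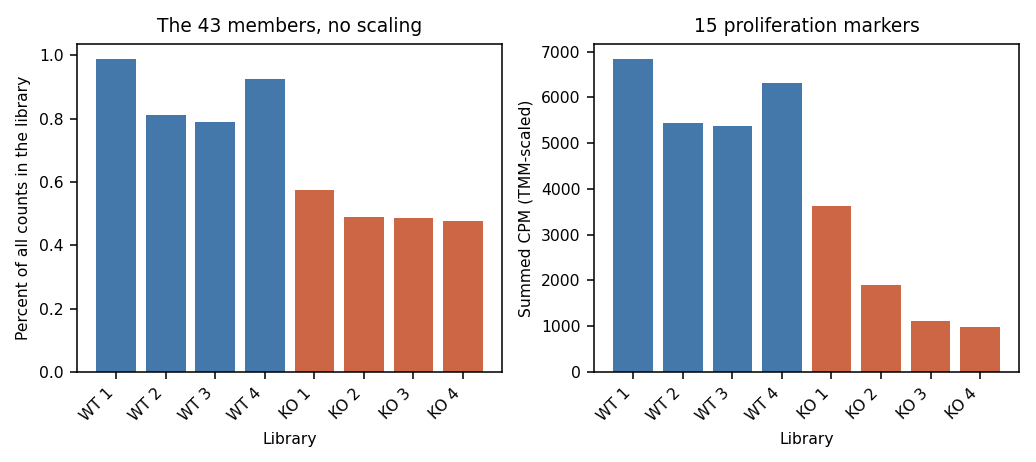
Left, the 43 members as a percent of all counts in each library, without TMM factors. Right, the summed CPM of 15 proliferation markers. Bars are single libraries, WT in blue and knockout in orange: the members' share lies between 0.789% and 0.987% in WT and between 0.477% and 0.573% in the knockout libraries, and knockout replicate 1 is the highest knockout bar in both panels.

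Genes of the same machinery with other names were lower in part; these lists too were drawn up with earlier results of these data known. Of 11 further nucleoporins tested 6 fell and none rose, beside 20.6% of all rows tested that were lower. Ndc1, a transmembrane nucleoporin, stood at 172, 105, 98.8 and 171 CPM in WT and at 56.5, 34.7, 21.4 and 25.2 CPM in the knockout libraries (-1.99, SE 0.33, edgeR adjusted p = 0.00217). Tpr, the filament of the nuclear basket, fell (-1.53, SE 0.32). So did Ahctf1, which encodes the ELYS protein that starts pore assembly on chromatin (-0.74, SE 0.14), and Gle1, an mRNA export factor (-0.66, SE 0.16). Sec13, a Y complex subunit shared with the COPII coat, had a log2 fold change of -0.01 (SE 0.17) and Rae1, an mRNA export factor, one of -0.21 (SE 0.15). Neither was called. Nupl1 had 4 counts in all and was too low to test. Whether its reads were counted under another row was not examined, so the low count is not read as absence.

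In the Ran cycle and among receptors outside the set, 7 of 10 genes tested fell and none rose. Xpot, the tRNA exporter, fell (-0.86, SE 0.17), as did Cse1l, the exporter that returns importin alpha to the cytoplasm (-1.39, SE 0.28). Rcc1, the exchange factor that loads Ran with GTP on chromatin, and Ranbp1, a Ran-binding cofactor, fell (-1.25, SE 0.29, and -1.55, SE 0.36). Ran itself was not called: it stood at 976, 1518, 1918 and 1116 CPM in WT and at 1563, 855, 676 and 681 CPM in the knockout libraries, which overlap (-0.55, SE 0.32, edgeR adjusted p = 0.194). Of 19 mRNA export genes 7 fell and none rose, led by Alyref (-1.20, SE 0.23), Ddx39 (-1.81, SE 0.35), Ddx19a (-0.81, SE 0.17) and Thoc3 (-0.71, SE 0.18). Of 13 genes of the lamina and inner nuclear membrane 6 fell and none rose, among them Lmna (-1.23, SE 0.21), Lmnb2 (-1.21, SE 0.29), Lmnb1 (-1.61, SE 0.40) and Tmpo (-0.85, SE 0.22). At an unadjusted p under 0.05 edgeR found no increase in any of these 4 lists and DESeq2 found 1, in the Ran list; no increase passed the adjusted threshold in DESeq2 or limma-voom. The share of genes called lower was 90% for the member nucleoporins, 81% for the member receptors, 70% for the Ran list, 54.5% for the further nucleoporins, 46.2% for the lamina list and 36.8% for the mRNA export list. For the 15 proliferation markers the share was 93.3%, above both member groups. Among all rows tested 20.6% were called lower, and among rows with a mean of at least 10 CPM 26.2%. Whether these shares differ was not tested.

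**Figure D5:**
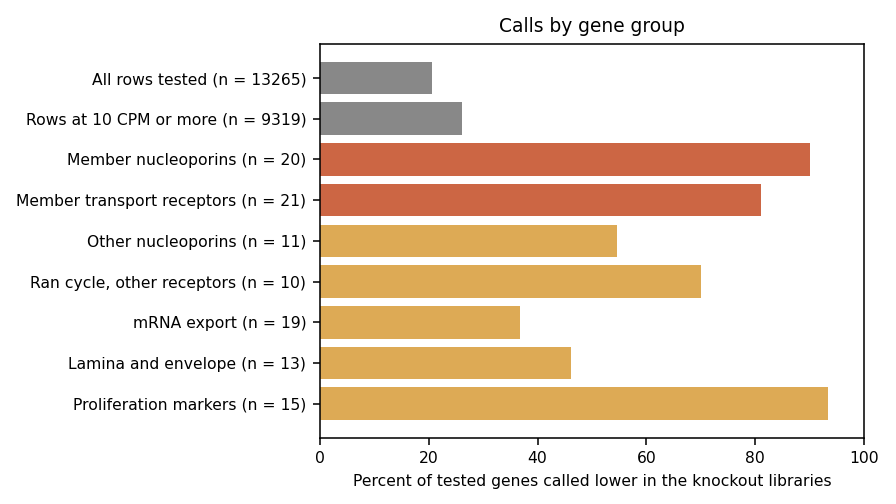
Percent of tested genes called lower in the knockout libraries (edgeR adjusted p under 0.05), for all rows, for rows with a mean of at least 10 CPM, for the members and for the pathway lists, with the number tested beside each name. The proliferation markers stand at 93.3%, the member nucleoporins at 90% and the member receptors at 81%, against 20.6% of all rows.

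Exons shared with other annotated genes limit a few of these values. In all, 15 members share exon bases with another annotated gene, of which 2 (Ipo4 and, on the opposite strand, Tnpo2) share at least 10%. No source used here states whether counting used strand.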

How the data were processed

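Libraries were made from 1 μg of total RNA with an mRNA kit, per the labels' protocols. HISAT2, StringTie and GRCm38 are named in the submitters' processing notes, while no source used here names the counting program. Per gene, raw counts were deposited for 8 libraries, in 2 tables with the same values, of which 1 was used. The members and gene lists were chosen with earlier results of these data known. All rows were fitted together in edgeR 4.0.16 (R 4.3.3; filterByExpr with a minimum count of 10 and a minimum total of 15, TMM, glmQLFit, glmQLFTest), which left 13265 rows; p-values were adjusted by Benjamini-Hochberg over them, and SE is the log2 fold change divided by the square root of F. The biological coefficient of variation was 0.294. The fit was tested on simulated counts with a common dispersion. The simulation held no close pairs of libraries like those in WT, so it cannot show how such pairs affect the calls. At these depths 3 counts correspond to 0.0873 to 0.11 CPM. Coordinates and exon lengths came from GENCODE M21 on GRCm38, where all 43 members matched. Every member may be named; the 12 with the smallest p and the most abundant per kilobase in each role are given in full, with the 4 of smallest p from each other list. Pairwise chi-square per degree of freedom within a genotype was at least 34.7, so no libraries were merged. The alternatives were 3 other scalings, 2 filters, DESeq2 1.42.0, limma-voom (limma 3.58.1), the replicate block, annotated genes only, a stricter threshold and each library left out. Summing WT libraries in pairs was added after seeing the data.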

Additional observations from a re-analysis of the deposited data

Results flagged for a closer look

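In 82 groups of 4 libraries (41 members in 2 genotypes), 6 had 1 library set apart from the other 3 by Dixon's gap test, and all 6 were knockout replicate 1 standing high. Chance alone sets apart about 1 group in 20, a rate that 6 of 82 exceeds only slightly. The groups come from the same libraries, so they are not independent. Its value was 868 CPM for Kpnb1, 91.1 for Kpna6, 51.4 for Nup37, 31.9 for Nup43, 82.8 for Nup54 and 98.7 for Nup88. The gap was widest for Nup37 (0.941 of the range) and narrowest for Kpnb1 (0.831).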

How the results depend on the processing

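The number of members called lower was 35 in the reported fit and lay between 32 and 35 under the other scalings, filters and tests. It was 27 at an adjusted p under 0.01, 31 to 37 with 1 library left out, and 25 with WT replicates 1 and 4 and replicates 2 and 3 summed as pairs; no member was called higher under any of the 19 alternatives. The calls that held under all 19 numbered 25. The 10 lost under at least 1 were Ipo13, Kpna2, Kpna6, Nup35, Nup37, Nup50, Nup85, Nup88, Xpo1 and Xpo4. The summed fit had fewer samples, and the cause of the lost calls was not tested. Upper-quartile factors and library size only moved the median of all rows from 0.02 to 0.20 and that of the members from -1.01 to -0.82. The share of calls that were higher went from 50.4% to 64.6% and 63.5%. With no filter on low counts the median of all rows was 0.32. Under both scalings, Ipo8 (0.01), Kpna1 (0.00) and Nup210l (0.17) turned positive without being called. Nup210l was also positive in limma-voom (0.03) and with the replicate block (0.02), and ranged from -0.25 to 0.29 with 1 library left out. Over all rows, 2779 were higher and 2734 lower; at an adjusted p under 0.01 these were 1488 and 1248, and with summed WT pairs 1652 and 1482. Leaving out single libraries gave 2041 to 3420 higher and 1768 (without knockout replicate 3) to 3409 lower. Tead4 was not called with upper-quartile factors (-0.51), library size only (-0.50), the stricter threshold (-0.71) or summed WT pairs (-0.75), and ranged from -0.83 to -0.57 with 1 library left out, its call lost without WT replicate 1 or 4 or knockout replicate 2 or 3. Same-numbered libraries did not deviate together (correlations of -0.044 to 0), and differently numbered ones gave -0.089 to 0.082. These values show no pairing by number. They cannot exclude that same-numbered libraries were grown or prepared together, which the labels do not state. With the replicate block 35 members were lower.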
